A study of Homo sapiens with 6 samples.

Results

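The HLA class I antigen presentation genes examined here were 9 named members of the pathway, HLA-B, HLA-C, HLA-E, HLA-F, B2M, TAP1, TAP2, TAPBP and ERAP1. They were taken from the table by gene symbol, and each matched 1 of the 62710 Ensembl genes. All 9 passed the filter on low counts, which kept 16753 genes. The samples were 6 RNA libraries of HCT116, a human colon cancer cell line. Of these, 3 (sh-NC) came from cells with a scrambled control shRNA and 3 (sh-IGF2BP3) from cells with a shRNA against IGF2BP3, an RNA-binding protein that binds and stabilizes mRNAs. Both shRNAs were delivered by lentivirus and cells were selected with puromycin, so the control cells carried a vector and were selected too. A single shRNA sequence was used against IGF2BP3. The study describes the libraries as 3 pairs of control and knockdown cells, and the sources used here do not say what a pair shared or whether the 3 libraries of a group came from separate cultures, so p-values measure only the spread between these libraries, which may be technical.

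Class I molecules show short peptides from inside the cell to CD8+ T cells and natural killer cells. A heavy chain (HLA-B, HLA-C, HLA-E or HLA-F) pairs in the endoplasmic reticulum with beta-2-microglobulin (B2M), is held by tapasin (TAPBP) at the peptide transporter TAP1/TAP2, and receives peptides that the proteasome makes and the aminopeptidase ERAP1 trims. The genes are known to respond to interferon-gamma, through IRF1 and through the transactivator NLRC5, and loss of class I is a known route of immune escape in colon cancer.

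Libraries held 16146718 to 23576469 counts. The target of the shRNA, IGF2BP3, stood at 90.3, 84.1 and 70.3 CPM (counts scaled to a common library size, here with edgeR's TMM factors) in sh-NC and at 60.2, 52.3 and 55.8 in sh-IGF2BP3, a log2 fold change of -0.54 ± 0.18 (SE, n = 3 per group; edgeR quasi-likelihood test, Benjamini-Hochberg adjusted p = 0.126). The groups did not overlap. With the trends of all genes on GC content and length removed in each library, the log2 fold change of IGF2BP3 was -0.22 (95% interval -0.63 to 0.19; edgeR, adjusted p = 0.680) and the groups overlapped. The study also reports the knockdown in HCT116 by qPCR and Western blot, which are other measures than these libraries. In bulk RNA of this kind, fewer cells with a transcript and less of it per cell cannot be told apart. A gene was called when its fold change was above 1.5 with an adjusted p under 0.05, and edgeR called 0% of genes higher and 0% lower, although 2283 were higher and 1431 lower at an unadjusted p under 0.05. DESeq2 called 566 higher and 134 lower. The sh-NC replicate 1 library weighed heavily on these counts: without it edgeR called 1739 genes higher and 985 lower. Without sh-IGF2BP3 replicate 3 it called 214 and 14. The epithelial list fitted the label, with a summed FPKM (the authors' value per unit of gene length and library size) of 560 to 970, 2 of its 6 tested genes higher (KRT8, log2 fold change 0.51, and KRT19, 0.80) and 1 lower (CDH1, -0.47) at an unadjusted p under 0.05, or 0 higher and 1 lower with those trends removed. KRT18, another keratin, had a log2 fold change of 0.26, and the villin gene VIL1 had 9 counts in all libraries together. Immune cell markers summed to 1.10 to 1.76 FPKM in sh-NC and 0.94 to 1.59 in sh-IGF2BP3, with PTPRC at 1 count, CD3E at 2, MS4A1 at 0, CD14 at 36 and LYZ at 41 over all libraries, and 0 of 3 tested genes (CD4, CD8A, ITGAM) had an unadjusted p under 0.05. Fibroblast and endothelial markers summed to 3.24 to 6.32 FPKM in sh-NC and 3.49 to 7.07 in sh-IGF2BP3, nearly all from COL1A1, while LUM and COL1A2 were at 0, and 0 of 4 tested genes (COL1A1, VWF, PDGFRB, PECAM1) had an unadjusted p under 0.05.

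The sequences before the start sites of HLA-B and HLA-C are shown first, because these neighbouring genes are the members whose counts differed most from each other between the groups. HLA-F, a weakly expressed relative, and B2M, their shared light chain on another chromosome, are set beside them. Each line holds the 250 bases before the RefSeq start (GRCh38.p14), 5′ to 3′ on the gene's strand. Capitals mark matches on either strand to letters of the known class I promoter elements: AANNGAAA (bound by interferon regulatory factors), CCAAT (bound by NF-Y), TGACG (the core of a CRE, bound by CREB and ATF proteins) and GGGA followed by any 4 bases and CC (bound by NF-kB), with N any base. Matches that touch or overlap run together.
HLA-B: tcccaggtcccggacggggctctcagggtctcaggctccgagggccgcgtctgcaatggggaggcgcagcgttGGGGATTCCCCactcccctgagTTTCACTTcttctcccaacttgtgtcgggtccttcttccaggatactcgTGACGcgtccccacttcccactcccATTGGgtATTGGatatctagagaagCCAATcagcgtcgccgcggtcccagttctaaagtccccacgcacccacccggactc
HLA-C: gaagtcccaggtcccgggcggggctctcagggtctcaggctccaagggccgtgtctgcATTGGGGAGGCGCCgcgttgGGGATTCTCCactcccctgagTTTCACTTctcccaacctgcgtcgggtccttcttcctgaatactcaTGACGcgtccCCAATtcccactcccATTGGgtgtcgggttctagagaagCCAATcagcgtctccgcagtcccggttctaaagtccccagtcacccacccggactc
HLA-F: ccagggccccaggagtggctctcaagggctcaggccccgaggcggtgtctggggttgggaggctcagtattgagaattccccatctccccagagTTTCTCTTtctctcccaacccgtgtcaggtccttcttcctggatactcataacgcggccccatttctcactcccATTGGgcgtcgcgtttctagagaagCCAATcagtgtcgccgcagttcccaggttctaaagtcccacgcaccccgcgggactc
B2M: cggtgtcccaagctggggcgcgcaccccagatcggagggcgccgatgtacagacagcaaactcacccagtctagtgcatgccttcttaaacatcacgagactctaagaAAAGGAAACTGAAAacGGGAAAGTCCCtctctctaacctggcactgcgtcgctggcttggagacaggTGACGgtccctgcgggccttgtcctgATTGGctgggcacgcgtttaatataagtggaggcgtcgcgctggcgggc

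These stretches are chr6:31357180-31357429 for HLA-B and chr6:31272093-31272342 for HLA-C, both on the minus strand, and chr6:29723184-29723433 for HLA-F and chr15:44711267-44711516 for B2M, both on the plus strand. The gene models in the deposited table begin further upstream than the RefSeq start for HLA-B, HLA-C, HLA-F and B2M. In a global alignment HLA-B and HLA-C were identical at 226 of 254 aligned positions (89.0%), and both were close to HLA-F (79.8% and 78.2%), whereas HLA-B and B2M shared 43.5%. HLA-B and HLA-C each held all 4 motifs. The interferon regulatory factor motif lay 155 to 148 bases upstream in HLA-B and 151 to 144 in HLA-C, the TGACG letters 106 to 102 and 105 to 101, and the CCAAT match nearest the start 56 to 52 in both. B2M also held all 4, and HLA-F held 2, without a match to TGACG or to the NF-kB letters. In windows not printed, TAP1 held 3 of the 4, TAP2, TAPBP and ERAP1 held 2 each, and TAPBP had a pair of overlapping AANNGAAA matches 18 to 5 bases upstream. Matches are common: among 35116 windows of this length, 20.3% held AANNGAAA, 32.0% CCAAT, 21.2% TGACG and 22.6% the NF-kB letters. A match of letters is a description and not a binding site, and no RefSeq window was read for HLA-E.

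Per unit of length, the members covered a wide range. In sh-NC the FPKM was highest for B2M (64.0 ± 3.08, SD, n = 3) and HLA-C (53.5 ± 9.40), followed by HLA-E (31.4 ± 3.52), TAPBP (15.2 ± 0.498), HLA-B (13.5 ± 0.939), TAP1 (8.32 ± 0.412), TAP2 (4.15 ± 0.954), ERAP1 (2.52 ± 0.422) and HLA-F (0.905 ± 0.350). Only B2M and HLA-C overlapped among neighbours in this order. In sh-IGF2BP3 HLA-C had the highest mean, at 91.9 ± 25.9, and its libraries again overlapped those of B2M (64.2 ± 13.2). The order depends on the length used. The deposited FPKM divides HLA-B by 4623 bases and HLA-C by 2507, while their principal GENCODE transcripts have 1547 and 1536 bases. Per kilobase of principal transcript, sh-NC libraries gave 39.2 ± 1.55 CPM for HLA-B and 34.3 ± 2.66 for HLA-E, which turns the order of these genes, and TAPBP (52.1 ± 1.92) then lay above both. TAP2 (16.6 ± 2.90) and TAP1 (13.0 ± 0.344) overlapped on that scale.

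Between the groups, no member met the call. edgeR called 0 of 9 members higher and 0 lower, and 1 of 9, HLA-C, had an unadjusted p under 0.05, against 13.6% of all genes on the higher side and 8.54% on the lower. In 1 member, TAPBP, the 3 sh-IGF2BP3 libraries all lay above the 3 sh-NC libraries, and in 1, HLA-B, they all lay below. Over all genes tested 13.2% and 11% did so. The median log2 fold change of the members was 0.16, and -0.01 over all genes tested. With the trends on GC content and length removed, the middle value of the members was that of HLA-F, 0.01, and the median over all genes was 0.01. Adjusted p-values of the members ran from 0.104 to 0.823.

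**Figure D1:**
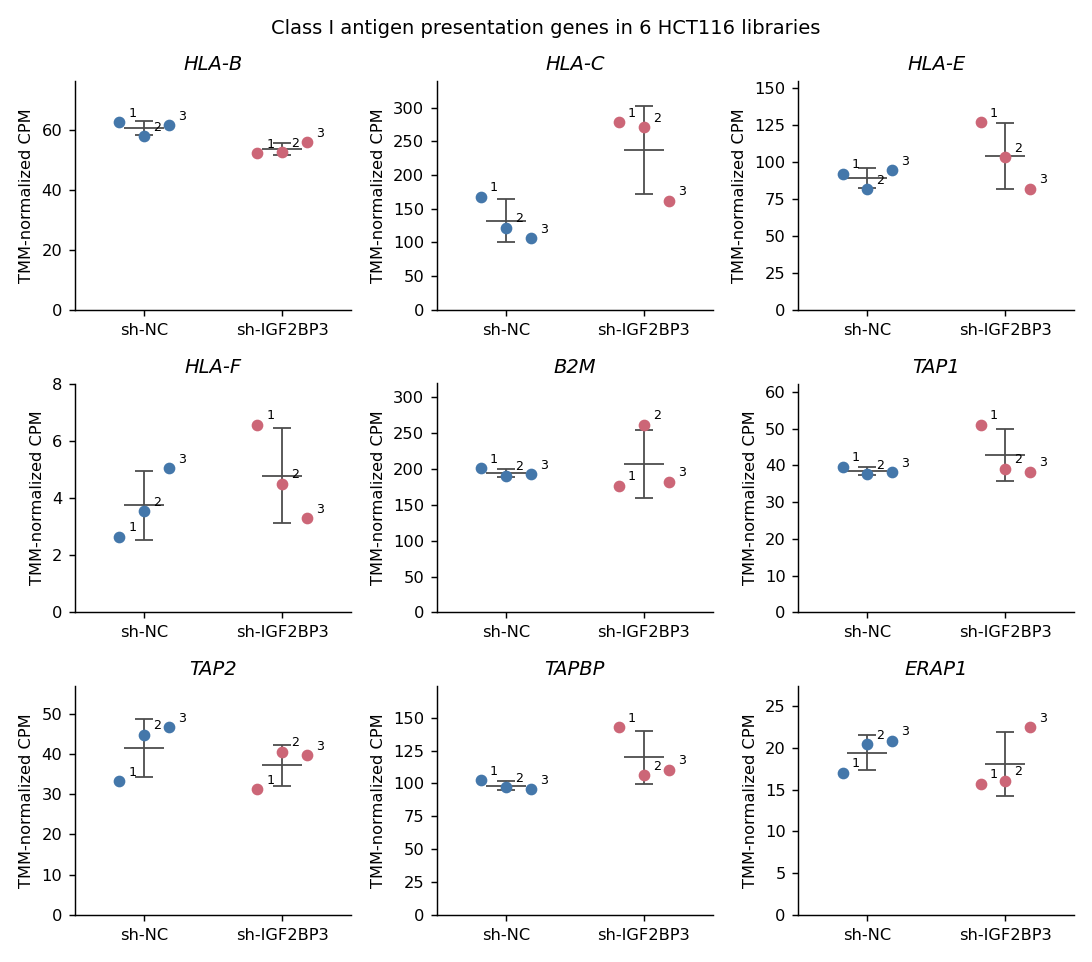
TMM-normalized CPM (y axis, from 0) of the 9 members in the sh-NC (blue) and sh-IGF2BP3 (red) libraries, with the replicate number beside each point, the group mean as a horizontal line and the SD as a bar. HLA-C stood at 278 and 271 CPM in 2 sh-IGF2BP3 libraries and at 162 in the third, while the 3 sh-IGF2BP3 libraries of HLA-B lay just under those of sh-NC.

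Among the heavy chains, HLA-C had a higher mean and HLA-B a lower mean in sh-IGF2BP3, and neither met the call. HLA-C (ENSG00000204525, chr6:31268749-31272130, minus strand), a ligand of killer cell receptors as well as a presenter of peptides, stood at 168, 122 and 107 CPM in sh-NC and at 278, 271 and 162 in sh-IGF2BP3. The first and second sh-IGF2BP3 libraries were above every control, and the third lay under sh-NC replicate 1, so the groups overlapped. The means were 132 ± 31.9 and 237 ± 65.0 CPM (SD, n = 3 each), a ratio of 1.79 and a log2 fold change of 0.84 ± 0.24 (SE, 95% interval 0.34 to 1.34; edgeR, adjusted p = 0.104). In the order of unadjusted p-values it was gene 412 of the 16753 tested. HLA-C was called higher by DESeq2 (adjusted p = 0.031, with 4.48% of genes called higher), by edgeR with no filter on low counts (0.0145, with 1.89%) and by edgeR without sh-NC replicate 1 (0.00687, with 10%), where its log2 fold change was 1.055. Over all alternatives its adjusted p ran from 0.00687 to 0.822.

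HLA-B (ENSG00000234745, chr6:31353872-31367067, minus strand), a classical presenter of peptides to CD8+ T cells and a highly polymorphic gene, stood at 62.5, 58.0 and 61.5 CPM in sh-NC and at 52.3, 52.6 and 55.9 in sh-IGF2BP3. Each sh-IGF2BP3 library was below each control, by a small margin. The means were 60.7 ± 2.40 and 53.6 ± 2.00 CPM, a log2 fold change of -0.18 ± 0.17 (SE, 95% interval -0.55 to 0.19; edgeR, adjusted p = 0.564). A two-sided exact permutation test over libraries gave p = 0.1, the smallest that 3 against 3 allows.

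Because the ratio of these 2 genes within a library does not depend on how libraries are scaled, it was computed after their values were seen, as 1 of 6 ratios. There were 2.69, 2.10 and 1.73 HLA-C counts for each HLA-B count in sh-NC, and 5.31, 5.14 and 2.89 in sh-IGF2BP3. The groups did not overlap, though the lowest sh-IGF2BP3 library came close to the highest control. On the log2 scale the ratio was higher by 1.00 ± 0.34 (SE) in sh-IGF2BP3, with an exact two-sided permutation p = 0.1, again the smallest possible. It stayed between 0.85 and 1.29 when any 1 library was left out. These 2 genes had the highest and the lowest log2 fold change of the members. The lack of overlap and the p therefore describe a pair chosen for its difference and cannot test it. HLA-C made up 45.8% ± 5.91 of the counts of the 4 heavy chain genes in sh-NC and 58.7% ± 4.81 in sh-IGF2BP3, and HLA-B 21.4% ± 1.92 and 13.98% ± 3.90 (SD, n = 3).

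**Figure D2:**
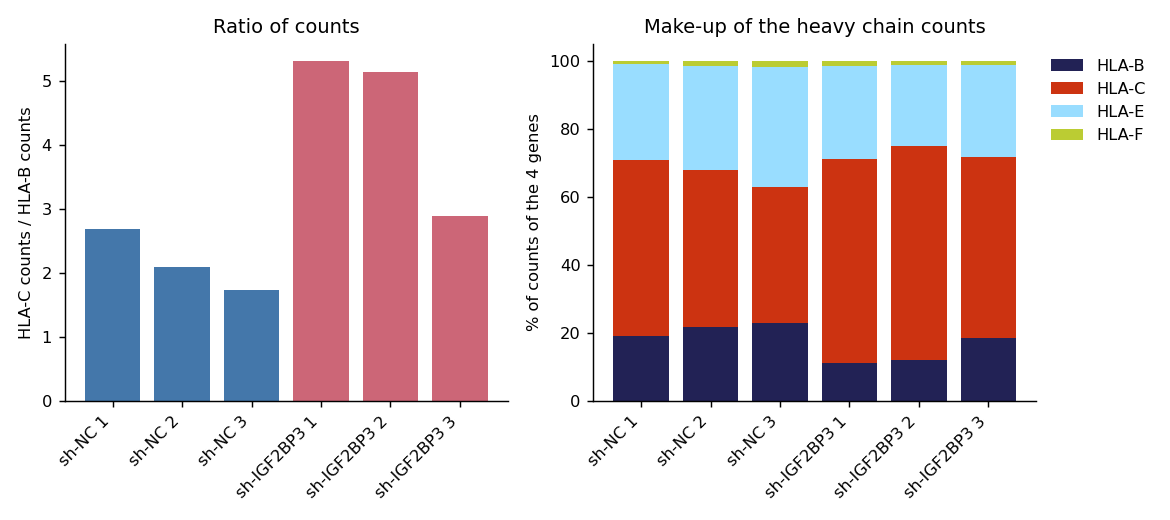
Left, HLA-C counts divided by HLA-B counts in each library (bars from 0, sh-NC blue, sh-IGF2BP3 red). Right, the share of HLA-B, HLA-C, HLA-E and HLA-F in the summed counts of these 4 genes (%). The ratio was at most 2.69 in sh-NC and at least 2.89 in sh-IGF2BP3, and HLA-F took 0.816% to 1.89% of the counts.

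Reads of these genes can be hard to assign, since heavy chain genes resemble each other and the counting rule for reads that match several genes is not given in the sources used here. In the reference transcripts, 5.99% of the 50-base words of HLA-C also occur in HLA-B, HLA-E, HLA-F or the pseudogene HLA-H, against 2.47% of those of HLA-B. The alleles of HCT116 can differ from the reference, and their effect on the counts was not tested. HLA-H, a pseudogene that shares 4.51% of the HLA-C words, stood at 1.75, 1.16 and 1.48 CPM in sh-NC and 4.17, 4.51 and 2.84 in sh-IGF2BP3. All 3 sh-IGF2BP3 libraries were higher, with a log2 fold change of 1.40 ± 0.36 (edgeR, adjusted p = 0.103). HLA-H held 0.0104, 0.0095 and 0.0139 counts for each HLA-C count in sh-NC and 0.0150, 0.0167 and 0.0175 in sh-IGF2BP3.

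HLA-E (ENSG00000204592, chr6:30489509-30494194, plus strand), which presents leader peptides of other class I chains to the NKG2A receptor of natural killer cells, stood at 91.9, 81.4 and 94.5 CPM in sh-NC and 127, 103 and 82.0 in sh-IGF2BP3. The third sh-IGF2BP3 library lay among the controls and the other two above them. Its log2 fold change was 0.22 ± 0.20 (95% interval -0.19 to 0.63; edgeR, adjusted p = 0.522), and its ratio to HLA-B overlapped between the groups (1.47 ± 0.0654 and 1.95 ± 0.479; exact permutation p = 0.3).

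HLA-F (ENSG00000204642, chr6:29722775-29738528, plus strand), a non-classical chain kept mostly inside the cell, had the fewest reads of the members, with 47 to 115 counts per library. It stood at 2.65, 3.55 and 5.06 CPM in sh-NC and 6.58, 4.51 and 3.29 in sh-IGF2BP3. Replicate 1 was the lowest control and the highest of the other group, and the groups overlapped. The log2 fold change was 0.35 ± 0.35 (95% interval -0.39 to 1.09; edgeR, adjusted p = 0.570). HLA-F-AS1, an antisense gene that covers 11928 bases of the HLA-F model on the other strand, had 60, 86 and 101 counts in sh-NC and 30, 38 and 48 in sh-IGF2BP3. The use of strand in counting is not given in the sources used here, so reads of HLA-F and HLA-F-AS1 may not be told apart.

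The light chain B2M (ENSG00000166710, chr15:44711358-44718851, plus strand) stood at 201, 191 and 193 CPM in sh-NC and 177, 262 and 182 in sh-IGF2BP3. One sh-IGF2BP3 library was above the controls and the others below them. The log2 fold change was 0.09 ± 0.20 (95% interval -0.33 to 0.50; edgeR, adjusted p = 0.823), and it turned to -0.11 without sh-IGF2BP3 replicate 2. The counts of the 4 heavy chain genes together, divided by those of B2M, were 1.62, 1.39 and 1.39 in sh-NC and 2.63, 1.65 and 1.66 in sh-IGF2BP3. Each sh-IGF2BP3 library was above each control, though the lowest (1.65) was close to the highest control (1.62). The direction turned when the trends of all genes on GC content and length, described further on, were removed: the ratio was then 1.74, 1.87 and 1.76 in sh-NC and 1.63, 1.37 and 1.69 in sh-IGF2BP3, and each sh-IGF2BP3 library was below each control.

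Of the transporter and its partners, TAPBP (ENSG00000231925, chr6:33299694-33314284, minus strand) stood at 102, 97.0 and 95.6 CPM in sh-NC and 143, 106 and 110 in sh-IGF2BP3. Each sh-IGF2BP3 library was above each control, with the first far above the other two. The means were 98.4 ± 3.62 and 120 ± 19.96 CPM, a log2 fold change of 0.28 ± 0.18 (95% interval -0.11 to 0.67; edgeR, adjusted p = 0.372; exact permutation p = 0.1).

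TAP1 (ENSG00000168394, chr6:32845209-32853816, minus strand) stood at 39.6, 37.7 and 38.1 CPM in sh-NC and 51.1, 39.1 and 38.3 in sh-IGF2BP3. Apart from the first sh-IGF2BP3 library, all values were within a narrow band, and the log2 fold change was 0.16 ± 0.19 (95% interval -0.25 to 0.56; edgeR, adjusted p = 0.651). TAP2 (ENSG00000204267, chr6:32821833-32838739, minus strand) stood at 33.3, 44.8 and 46.6 CPM in sh-NC and 31.3, 40.6 and 39.7 in sh-IGF2BP3, with a log2 fold change of -0.16 ± 0.20 (95% interval -0.59 to 0.27; edgeR, adjusted p = 0.660). The replicate 1 libraries of both groups were the lowest for TAP2 and the highest for TAP1. TAP1 counts divided by TAP2 counts were 1.19, 0.841 and 0.817 in sh-NC and 1.63, 0.963 and 0.966 in sh-IGF2BP3 (exact permutation p = 0.5). The TAP1 model lies wholly within that of PSMB9 on the other strand, which shares 8608 bases with it and had far fewer counts (33 to 69 per library).

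ERAP1 (ENSG00000164307, chr5:96760810-96808100, minus strand) stood at 17.0, 20.4 and 20.9 CPM in sh-NC and 15.7, 16.1 and 22.5 in sh-IGF2BP3. The groups overlapped and the log2 fold change was -0.10 ± 0.23 (95% interval -0.59 to 0.38; edgeR, adjusted p = 0.812). CAST, which overlaps ERAP1 by 18786 bases on the other strand, had 2003 to 3831 counts per library against 246 to 495 for ERAP1.

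Fold changes of all genes followed the GC content of their transcripts in these libraries. Among tested genes with under 40% GC the median log2 fold change was -0.35, among those with 45 to 50% it was -0.10, and among those with 60% or over it was 0.53. The members spread along this range, from ERAP1 (39.7% GC in the longest transcript) and B2M (40.6%) to HLA-B (59.0%) and HLA-C (62.7%). HLA-C at 0.84 lay above the upper quartile of genes with 60% or over (0.77). HLA-B at -0.18 lay under the lower quartile of genes with 55 to 60% (0.06), the bin that also holds HLA-F, TAP1 and TAPBP, which lay inside its middle 50%. B2M and ERAP1 lay above the upper quartiles of their bins (-0.01 and -0.14). How much of each member's difference goes with GC content was examined only by removing the trend.

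**Figure D3:**
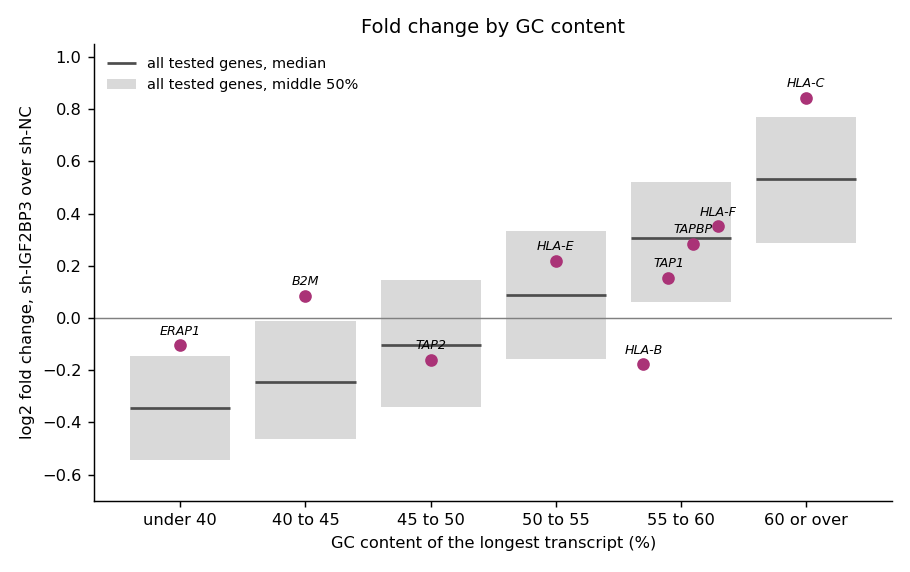
Log2 fold change of sh-IGF2BP3 over sh-NC (y axis) by GC content of the longest transcript (x axis, % in 6 bins), with grey boxes for the middle 50% of all tested genes, dark lines for their median and points for the members. The median moved from -0.35 to 0.53 across the bins, with HLA-C above and HLA-B under the box of its bin.

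With the trends on GC content and length removed in every library, HLA-C had a log2 fold change of 0.29 ± 0.17 (95% interval -0.09 to 0.67; edgeR, adjusted p = 0.567) and HLA-B one of -0.50 ± 0.16 (-0.85 to -0.16; unadjusted p = 0.0085, adjusted p = 0.415). B2M stood at 0.26, TAPBP at 0.04, HLA-F at 0.01 and TAP2 at -0.02. The sign turned for HLA-E (-0.03), TAP1 (-0.14) and ERAP1 (0.23). Groups did not overlap for HLA-B and TAP1, which were lower, and for ERAP1, which was higher, while TAPBP overlapped. After the removal 3.59% of all genes were lower and 6.86% higher at an unadjusted p under 0.05 by edgeR. The share of all genes without overlap was not counted after it. The lack of overlap in HLA-B, TAP1 and ERAP1 therefore has no background to be read against. The log2 ratio of HLA-C to HLA-B was still higher in sh-IGF2BP3, by 0.81, with no overlap between the groups. edgeR again called 0 genes in either direction.

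**Figure D4:**
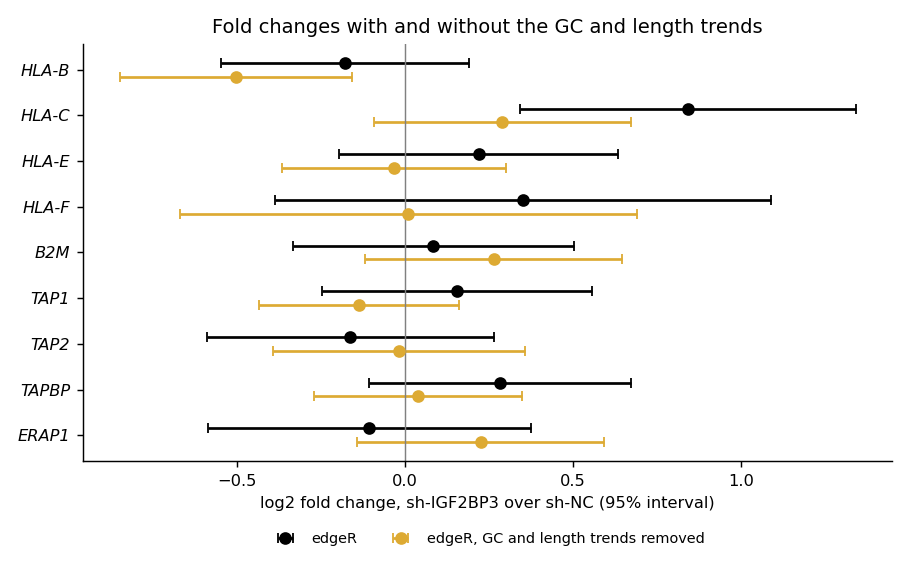
Log2 fold change of each member with its 95% interval (x axis), from edgeR (black) and from edgeR after the GC and length trends were removed (yellow). The interval of HLA-C lay above 0 (0.34 to 1.34) before the removal and included 0 after it (-0.09 to 0.67), and that of HLA-B lay under 0 (-0.85 to -0.16) only after it.

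The other genes of the pathway were taken from lists. Of all genes tested, 13.6% were higher and 8.54% lower at an unadjusted p under 0.05, and 6.86% and 3.59% once the GC and length trends were removed, which are the background for the counts of list genes. Among the ER folding, loading and trimming partners, 1 of 6 had an unadjusted p under 0.05, on the higher side. This was CALR, the chaperone calreticulin, at 812 ± 239 CPM in sh-NC and 1158 ± 126 in sh-IGF2BP3 (log2 fold change 0.51; edgeR, adjusted p = 0.200). With the trends removed it stood at 0.32 and 0 of 6 had such a p. The lectin chaperone CANX (-0.13), the disulfide isomerase PDIA3 (-0.17) and the glucosyltransferase UGGT1 (-0.34) had log2 fold changes below 0, and the list's median was -0.17, or 0.10 with the trends removed.

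The constitutive catalytic proteasome subunits PSMB5, PSMB6 and PSMB7, which cut proteins into peptides, were 3 of 3 higher at an unadjusted p under 0.05, and their groups did not overlap. PSMB6 stood at 83.5, 70.8 and 48.7 CPM in sh-NC and 120, 138 and 89.9 in sh-IGF2BP3. Log2 fold changes were 0.62, 0.77 and 0.43 in that order, with adjusted p-values from edgeR of 0.134, 0.108 and 0.213, so that none met the call. Over all genes 13.6% were higher at such a p and 13.2% did not overlap on that side. With the GC and length trends removed 2 of 3 had such a p, at log2 fold changes of 0.47, 0.53 and 0.35 for PSMB5, PSMB6 and PSMB7. Of the immunoproteasome subunits and the PA28 activator, 4 of 5 were tested and 1 was higher at an unadjusted p under 0.05. This was the activator gene PSME1 (log2 fold change 0.50; adjusted p = 0.172), and its partner PSME2 stood at 0.39 with groups that did not overlap. The interferon-induced catalytic subunits were scarce. PSMB8 had 1 to 11 counts per library, PSMB10 stood at 1.33 ± 0.669 CPM in sh-NC and 2.32 ± 1.21 in sh-IGF2BP3, and PSMB9, named after its values were seen, at 2.49 ± 0.546 and 3.40 ± 0.694. The median of the immunoproteasome list was 0.47 and that of the constitutive list 0.62, which became 0.35 and 0.47 with the GC and length trends removed, when 0 of the 4 immunoproteasome genes tested had an unadjusted p under 0.05.

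Of 12 transcription regulators of class I genes, 1 was higher and 0 lower at an unadjusted p under 0.05, and the median log2 fold change was 0.05. The one was RFXANK, a subunit of the RFX complex (0.50; edgeR, adjusted p = 0.212). With the GC and length trends removed RFXANK stood at 0.03 and 0 of the 12 had such a p. RELA, the NF-kB subunit, stood at 97.5, 82.1 and 71.1 CPM in sh-NC and 124, 102 and 98.98 in sh-IGF2BP3 (0.38), with no overlap, and CREB1 was lower with no overlap (-0.37), values that became 0.13 and 0.07 with the trends removed. NFYA and RFX5 stood at -0.25 and 0.07. NLRC5, the class I transactivator, named after its values were seen, stood at 15.3, 12.1 and 16.2 CPM in sh-NC and 16.7, 10.9 and 16.5 in sh-IGF2BP3 (0.02 ± 0.25). Its values were spread alike in both groups. IRF1, named in the same way, stood at 12.5 ± 3.41 and 16.8 ± 0.480 CPM (0.42; adjusted p = 0.317).

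Interferon receptors and JAK-STAT signalling genes had 1 higher and 1 lower of 12 at an unadjusted p under 0.05, with a median of -0.23. TYK2, a kinase of the type I interferon receptor, stood at 74.9, 65.2 and 67.3 CPM in sh-NC and 110, 102 and 91.8 in sh-IGF2BP3 (0.55; edgeR, adjusted p = 0.122). IFNGR1, the ligand-binding chain of the interferon-gamma receptor, stood at 32.3, 42.5 and 48.6 in sh-NC and 25.4, 30.7 and 28.4 in sh-IGF2BP3 (-0.55; adjusted p = 0.148). The groups of both genes did not overlap. With the GC and length trends removed TYK2 stood at 0.22 and IFNGR1 at -0.33, and 0 of the 12 genes had an unadjusted p under 0.05 in either direction. IFNGR2 (0.14), JAK1 (-0.22) and the feedback inhibitor SOCS3 (0.48) had adjusted p-values of 0.684, 0.478 and 0.236, and SOCS3 stood at 0.06 with the trends removed.

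Among 30 interferon-stimulated genes, 26 were tested, 5 were higher and 0 lower at an unadjusted p under 0.05, and the median was 0.0047. Over all genes 13.6% were higher at such a p. With the GC and length trends removed 3 of the 26 were higher and 0 lower, against 6.86% of all genes on the higher side. The membrane proteins IFITM3, at 64.5, 63.1 and 60.5 CPM in sh-NC and 122, 125 and 78.1 in sh-IGF2BP3, and IFITM2, at 26.7, 26.0 and 21.5 and then 53.1, 47.5 and 28.4, did not overlap between the groups. Log2 fold changes were 0.79 and 0.80 (edgeR, adjusted p = 0.103 and 0.111). ISG15, a ubiquitin-like modifier, stood at 17.4, 10.9 and 8.17 CPM in sh-NC and 36.5, 34.5 and 14.7 in sh-IGF2BP3 (1.23; adjusted p = 0.103), with an overlap at sh-IGF2BP3 replicate 3. With the trends removed IFITM3, IFITM2 and ISG15 stood at 0.45, 0.50 and 0.65. Others of the list had almost no reads in either group, with CXCL10 at 2 counts, GBP1 at 3 and XAF1 at 0 over all libraries. Of the 26 tested genes, 13 had a log2 fold change above 0 and 13 below 0.

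**Figure D5:**
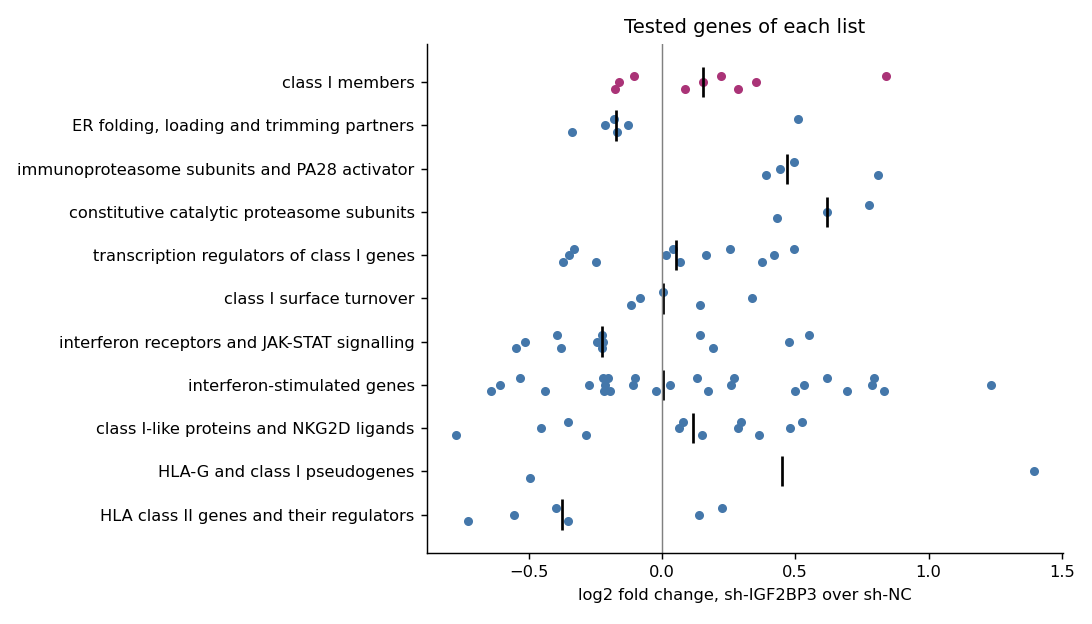
Log2 fold change of each tested gene (points) by list (y axis), with the list's median as a vertical line and the class I members in the top row. The constitutive proteasome subunits lay between 0.43 and 0.77, and the interferon-stimulated genes spread on both sides of 0.

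Class I surface turnover genes had 0 of 5 with an unadjusted p under 0.05 by edgeR and a median of 0.0053. WWP2, a ubiquitin ligase, stood at 0.34 with no overlap, TMEM127 at 0.14, SPPL3 at -0.08 and SUSD6 at -0.12. Over all genes 13.2% did not overlap on the higher side. With the GC and length trends removed WWP2 stood at 0.14 and the list's median was -0.09. Of 14 class I-like proteins and NKG2D ligands, 12 were tested, with 1 higher and 1 lower at an unadjusted p under 0.05 and a median of 0.12. MICA, a stress-induced ligand of NKG2D, stood at 28.0 ± 8.27 CPM in sh-NC and 40.3 ± 6.57 in sh-IGF2BP3 (0.53; adjusted p = 0.194), and ULBP1, another such ligand, at 23.7 ± 10.2 and 13.9 ± 5.27 (-0.77; adjusted p = 0.186). MICB stood at 0.28 and PROCR at 0.36. With the trends removed MICA stood at 0.32 and ULBP1 at -0.57, and 0 of the 12 were higher and 1 lower at such a p.

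HLA-G and the class I pseudogenes were mostly below the filter, with 2 of 10 tested, HLA-H and HLA-L (-0.50), of which HLA-H alone was higher at an unadjusted p under 0.05, also with the trends removed (0.81). HLA-G had 1 count over all libraries. Of 12 HLA class II genes and regulators, 6 were tested and 0 had an unadjusted p under 0.05 by edgeR, with a median of -0.38. HLA-DRA stood at 2.52 ± 0.414 CPM in sh-NC and 1.98 ± 0.233 in sh-IGF2BP3, HLA-DMA at 5.81 ± 2.18 and 3.96 ± 0.778, HLA-DMB at 3.25 ± 1.71 and 2.47 ± 1.01 and HLA-DOA at 1.11 ± 0.568 and 0.674 ± 0.062. The class II chaperone CD74 had 64 counts in all libraries together. No gene of any list had an adjusted p under 0.05.

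The 5 tested genes whose log2 CPM over the 6 libraries lay nearest to the mean of HLA-B, HLA-C, HLA-E and HLA-F, each centred on its own mean, were TNFSF12 (Euclidean distance 0.0772), TLE1 (0.0954), WASH6P (0.0965), ZFYVE19 (0.111) and ARHGEF4 (0.120), against a median distance of 0.958 over all genes. None of these 5 lies on chromosome 6, and the GC content of their longest transcripts was 55.1% to 61.0%. With 6 libraries and 16753 genes, close profiles are a description only.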

How the data were processed

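RNA-seq was performed on 6 HCT116 libraries prepared from total RNA with an Illumina TruSeq kit. The authors deposited raw counts per Ensembl gene on GRCh38 and FPKM values. The deposited FPKM was found to be the count divided by the library total and by 1 length per gene, the same in every library. The submitters' processing notes name CASAVA; aligner, counter and use of strand are not given in the sources used here.

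Tests on the counts used edgeR 4.0.16 in R 4.3.3 (filterByExpr, TMM, quasi-likelihood test, Benjamini-Hochberg adjustment over all 16753 genes tested), with thresholds from the study's methods. Alternatives were DESeq2 1.42.0, limma 3.58.1 on log2(FPKM + 1) or log2(FPKM + 0.1), other scalings and filters, a replicate block, leaving out each library, and removal in each library of trends on GC content and length (splines with 5 degrees of freedom). GC content was that of the longest GENCODE 29 transcript, and length was the one used in the deposited FPKM. Only the alternative on the principal transcript took both from GENCODE 29. The plain edgeR and DESeq2 fits were tested on simulated counts that held no trend on GC content or length. The other steps, among them the trend removal, were not tested in this way. Promoter windows came from RefSeq (GRCh38.p14; 8 of 9 members matched), and pairs were aligned with Biopython 1.88 (match 1, mismatch -1, gap -4 and -1). Single values were compared by exact permutation tests, for which 3 against 3 libraries allow no p under 0.1.

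The members and lists were chosen with earlier results of these data known. Named genes were the members, IGF2BP3, up to 3 tested genes of each list with the highest mean FPKM and up to 3 with the smallest p, and the 5 nearest profiles. Overlapping genes, untested list genes given with their counts, and genes said to be so in the text were named after their values were seen. One gene of the lists is not reported here by name. Counts per library bound precision, and standard errors cover the spread between libraries.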

Additional observations from a re-analysis of the deposited data

How the results depend on the processing

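No member was called lower under any alternative run. The member called higher in 3 of the alternatives, HLA-C, gave a count of 1 with DESeq2 and with no filter on low counts, and 0 to 1 when 1 library was left out (1 without sh-NC replicate 1). Over all genes, calls numbered 566 higher and 134 lower with DESeq2, 687 and 150 with no filter, 1 and 0 with RLE normalization, 1 and 0 when every library had to hold at least 10 counts, and 0 and 1 with limma on log2(FPKM + 1) at a mean FPKM of at least 1. Leaving out 1 library gave 0 to 1739 higher and 0 to 985 lower. Members whose groups did not overlap numbered 0 higher under that count minimum, 2 lower with the GC and length trends removed (2 with the replicate block added), and 0 to 3 higher and 1 to 2 lower when 1 library was left out. Groups with a library left out separate more easily, and the share of all genes without overlap was not counted under these alternatives. The cause of the changes between alternatives was not tested.

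Directions that turned were those of members with adjusted p-values of 0.372 or more in the edgeR fit. With the GC and length trends removed the log2 fold change was -0.032 for HLA-E, -0.14 for TAP1 and 0.23 for ERAP1, and with the replicate block added it was -0.037, -0.14 and 0.22. Trends on the principal transcript, an alternative chosen after seeing the data, gave -0.013 for HLA-F, -0.11 for TAP1, -0.077 for TAPBP and 0.25 for ERAP1. B2M ranged from -0.11 (without sh-IGF2BP3 replicate 2) to 0.19 when 1 library was left out and stood at -0.014 in each of the 3 limma fits on log2 FPKM. Of the 160 member values under alternatives, 143 kept direction and call, 14 turned direction and 3, all HLA-C, passed the call. The log2 ratio of the 4 heavy chain genes to B2M was 0.40 as counted and -0.20 after the trend removal, and that of HLA-C to HLA-B was 0.85 to 1.29 without 1 library, alternatives also chosen after seeing the data.

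The study describes 3 pairs without saying what a pair shared or that the numbers mark the pairs. The numbers were not taken to pair the libraries, since the study's methods name no pairing term. Deviations of same-numbered libraries from their group means correlated at -0.28, -0.19 and -0.04. Those of different-numbered libraries correlated at -0.26 to 0.32. With deviations centred within groups of 3, these values cannot show whether libraries were paired. With the replicate block edgeR called 0 genes in either direction, and HLA-C had a log2 fold change of 0.83 and HLA-B one of -0.18. HLA-F, with 47 to 115 counts per library, was measured least precisely.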
